A study of Mus musculus with 106 samples.

Results

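The 9 genes described here form the path from noradrenaline at the cell surface to cyclic AMP (cAMP) inside the cell. They were chosen by name and looked up by symbol in the tables of gene counts: the receptor genes Adrb1, Adrb3, Adra1a and Adra2a, the stimulatory G protein gene Gnas, the adenylyl cyclase gene Adcy3, the protein kinase A regulatory subunit gene Prkar2b and the phosphodiesterase genes Pde3b and Pde4d. All 9 were found among the 21647 genes of the largest table. The data are bulk RNA sequencing of 106 libraries from wild type male C57BL/6J mice. In the cold experiment mice from Janvier spent 2 weeks at 10 °C, after 5 days each at 18 °C and 14 °C, and were compared with mice kept at 22 °C, with an age of 11 weeks in the labels (12 weeks for quadriceps). In the warm experiment mice from Charles River spent 4 weeks at 34 °C and were compared with their own 22 °C controls, with an age of 12 weeks in the labels. Each 10 °C or 34 °C group had 3 libraries and 3 libraries of its own 22 °C controls, except bone marrow with 6 and 6 and spinal cord with 5 and 5. The study's methods give 2 pooled mice per library, and 1 mouse per library for bone marrow and spinal cord, so p-values measure the spread between these libraries. Libraries of different tissues can come from the same mice, and comparisons between tissues treated all libraries as independent. At 10 °C the tissues were interscapular brown fat (iBAT), inguinal subcutaneous fat (ingSAT), perigonadal visceral fat (pgVAT), quadriceps, liver, ileum, spleen, brain, hypothalamus, bone marrow and spinal cord. At 34 °C they were iBAT, quadriceps, liver, ileum and brain without hypothalamus, while ingSAT and pgVAT at 34 °C were not analysed here.

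As background, sympathetic nerves release noradrenaline in fat, and brown fat is among the most densely innervated depots. Beta-adrenergic receptors act through the stimulatory G protein on adenylyl cyclases, which make cAMP, and cAMP releases the catalytic subunits of protein kinase A from its regulatory subunits, after which lipid stores are broken down and heat is produced through uncoupling protein 1. Alpha-2 receptors act through inhibitory G proteins and lower cAMP, alpha-1 receptors act mainly through calcium, and phosphodiesterases end the signal by breaking cAMP down.

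Levels are given as CPM, counts of a gene scaled to a common library size, after TMM scaling, a correction for library composition, and log2FC is the log2 fold change against 22 °C from edgeR's quasi-likelihood test, fitted for each tissue over all genes with an average above 1 CPM. A gene was called, and is said to have risen or fallen, at p of at most 0.05 before adjustment and a fold change above 1.5, which are the limits of the study, and the Benjamini-Hochberg adjusted p over all genes of the tissue is given beside it. Beside each count of called genes stands the percentage of all tested genes of that tissue that passed the same limits. Library totals ran from 4262403 to 62880248 counts. As a check of the temperature labels, Ucp1 in iBAT was 5412, 4093 and 8275 CPM at 22 °C and 9136, 12794 and 10442 CPM at 10 °C in the cold experiment, and 8249, 5494 and 6296 CPM at 22 °C and 1266, 1692 and 1231 CPM at 34 °C in the warm one. One brain library at 22 °C (replicate 2) stood apart, with 60919 CPM of summed hepatocyte markers against 1102 and 733 CPM in the other 22 °C brain libraries, and brain results of the cold experiment are given with and without it. Every list of markers of a labelled tissue was detected in full in that tissue, and markers of sympathetic nerve cells, whose bodies lie outside fat, summed to at most 2.904 CPM in any fat library. In bulk tissue, fewer cells of a type and less RNA per cell cannot be told apart.

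The genes lie on 7 chromosomes of GRCm38 (GENCODE M21): Adrb1 on chr19:56722199-56733113 (plus strand), Adrb3 on chr8:27225776-27250616 (minus), Adra1a on chr14:66635251-66771168 (plus), Adra2a on chr19:54044151-54048982 (plus), Gnas on chr2:174284320-174346744 (plus), Adcy3 on chr12:4133103-4213525 (plus), Prkar2b on chr12:31958476-32061296 (minus), Pde3b on chr7:114415281-114539251 (plus) and Pde4d on chr13:108449948-109953461 (plus). All are protein-coding. Exons of an opposite-strand gene cover 24.9% of the exon bases of Adrb3 (Gm45470), 21.965% of those of Gnas (Gm20721 and Nespas) and 22.1% of those of Adcy3 (Cenpo). The kit of the 8-tissue libraries is not stated to mark strand, so in those libraries reads of these genes and of their opposite-strand partners cannot be told apart. Windows of 300 bases around annotated transcription starts (RefSeq, GRCm38.p6; 250 before the start and 50 after) were at hand for 6 of the 9 genes, 11 windows in all. These were searched on both strands for the core of the cAMP response element, TGACG, which reads as CGTCA on the other strand, letters that cAMP response element binding proteins are known to recognise. The core was present in 5 windows, which belong to Adra2a, Adrb1 and Gnas, and the whole palindrome TGACGTCA, which holds the core, was in 0 of the 11. Among all 32851 mouse windows of this length, 20.8% hold the core and 1.79% the palindrome. Windows for Adrb3, Adra1a and Pde3b were not among those at hand, which does not mean that these genes lack annotated starts. The windows of Gnas and Adcy3, called in iBAT in both experiments, and of Adrb1, called in neither, are shown because they are set against each other below. Of the 4 windows of Gnas, 3 hold the core, and the first and last along the chromosome are printed. The others, at chr2:174327499-174327798 and chr2:174327518-174327817, largely overlap each other and are among those 3. Capitals mark the core on either strand, and a window without capitals has none in these 300 bases.
Gnas, chr2:174284070-174284369, plus strand: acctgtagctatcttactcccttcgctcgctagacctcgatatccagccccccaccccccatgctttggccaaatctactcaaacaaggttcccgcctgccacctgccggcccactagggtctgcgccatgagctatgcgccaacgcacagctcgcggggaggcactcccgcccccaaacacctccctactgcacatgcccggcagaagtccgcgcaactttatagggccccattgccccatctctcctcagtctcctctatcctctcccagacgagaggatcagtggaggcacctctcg
Gnas, chr2:174329756-174330055, plus strand: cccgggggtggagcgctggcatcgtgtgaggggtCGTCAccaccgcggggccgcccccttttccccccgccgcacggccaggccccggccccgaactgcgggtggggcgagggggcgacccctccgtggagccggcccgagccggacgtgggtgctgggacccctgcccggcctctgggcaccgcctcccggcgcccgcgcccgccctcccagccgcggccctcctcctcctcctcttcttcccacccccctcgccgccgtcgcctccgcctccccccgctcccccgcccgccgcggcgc
Adcy3, chr12:4133147-4133446, plus strand: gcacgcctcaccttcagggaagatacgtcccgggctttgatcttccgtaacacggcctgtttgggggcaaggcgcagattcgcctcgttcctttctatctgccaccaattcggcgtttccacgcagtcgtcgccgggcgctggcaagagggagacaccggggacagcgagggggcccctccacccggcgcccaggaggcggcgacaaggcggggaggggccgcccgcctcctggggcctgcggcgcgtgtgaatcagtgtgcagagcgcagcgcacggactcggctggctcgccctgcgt
Adcy3, chr12:4133903-4134202, plus strand: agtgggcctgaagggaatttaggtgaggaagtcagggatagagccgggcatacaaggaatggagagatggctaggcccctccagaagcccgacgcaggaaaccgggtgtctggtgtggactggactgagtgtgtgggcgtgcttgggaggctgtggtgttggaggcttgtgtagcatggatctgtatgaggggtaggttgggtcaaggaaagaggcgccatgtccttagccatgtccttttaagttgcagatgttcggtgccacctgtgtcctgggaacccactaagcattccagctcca
Adrb1, chr19:56721867-56722166, plus strand: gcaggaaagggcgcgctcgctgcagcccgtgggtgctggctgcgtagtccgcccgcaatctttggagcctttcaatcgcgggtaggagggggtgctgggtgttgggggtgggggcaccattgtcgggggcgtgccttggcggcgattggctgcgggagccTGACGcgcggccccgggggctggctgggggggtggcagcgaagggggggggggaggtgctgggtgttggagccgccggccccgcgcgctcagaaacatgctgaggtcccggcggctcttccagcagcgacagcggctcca

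At 22 °C, 8 of the 9 genes had their highest mean level in a fat depot among the 8 tissues of the cold experiment that share a table, 7 of them in iBAT and Adrb3 in pgVAT, and the exception was Adra2a, highest in hypothalamus. Scaled by library size alone, 7 of the 9 genes had their highest mean level in a fat depot. Levels over tissues were scaled over the whole table, so they differ from the values scaled within a comparison that follow. Adrb3, the beta-3 adrenergic receptor that is largely restricted to fat cells, averaged 959.6 ± 125 CPM (SD, n = 3) in pgVAT, 678 ± 180.4 in ingSAT, 338 ± 52.4 in iBAT and 20.95 ± 2.61 in liver, and 0.526 to 3.09 CPM in spleen, hypothalamus, ileum and brain. The pgVAT and ingSAT libraries overlapped, while iBAT lay apart from both and from liver. Adrb1, the beta-1 receptor that is also abundant in heart, averaged 50.8 ± 12.8 CPM in iBAT, apart from 10.9 ± 3.87 in brain and 5.78 to 6.39 CPM in pgVAT, ingSAT, hypothalamus and spleen, and these 5 tissues overlapped as neighbours. Liver and ileum were lowest for Adrb1, at 1.57 ± 1.25 and 1.24 ± 0.164 CPM. Adra1a, the alpha-1A receptor, averaged 228 ± 50.2 CPM in iBAT against 13.8 to 25.2 CPM in brain, pgVAT, liver, ingSAT and hypothalamus, which overlapped as neighbours, and 0.370 and 0.432 CPM in spleen and ileum. Adra2a, the inhibitory alpha-2A receptor, ran the other way, with 20.2 ± 1.05 CPM in hypothalamus, 10.1 ± 4.54 in brain, 5.33 ± 1.101 in ileum, 1.53 ± 0.860 in ingSAT, 0.921 ± 0.343 in pgVAT, 0.315 ± 0.0856 in spleen and 0.261 ± 0.227 in iBAT. Brain overlapped ileum, ingSAT overlapped pgVAT and spleen overlapped iBAT. In liver 5 of the 6 libraries at 22 °C and 10 °C held 0 Adra2a counts, which allows up to 0.135 to 0.185 CPM (3 counts, counting error only).

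Of the genes inside the cell, Gnas, the alpha subunit of the stimulatory G protein, averaged 168 ± 20.1 CPM in iBAT and 155 ± 9.74 in hypothalamus, whose libraries overlapped, then 45.3 ± 19.6 in brain and 10.5 to 24.2 CPM in liver, ileum, pgVAT, ingSAT and spleen. Adcy3, an adenylyl cyclase, averaged 239 ± 153 CPM in iBAT, 72.5 ± 5.11 in hypothalamus and 45.03 ± 9.64 in ingSAT, each apart from the one before it, and 6.15 to 37.4 CPM in liver, ileum, pgVAT, spleen and brain, of which brain overlapped ingSAT. The SD of Adcy3 in iBAT came from 1 library well above the others, described with the cold comparison. Prkar2b, the type II beta regulatory subunit of protein kinase A and the main one in fat, averaged 2145 ± 376 CPM in iBAT, 659.8 ± 158 in pgVAT and 649.6 ± 54.6 in ingSAT, against 11.4 to 77.9 CPM in the other tissues, where spleen was highest. Pde3b, the phosphodiesterase through which insulin lowers cAMP in fat cells, did not separate the depots, with 694 ± 104 CPM in iBAT, 669.6 ± 187 in pgVAT and 591 ± 33.5 in ingSAT, followed by 249.7 ± 33.7 in liver and 25.8 to 69.5 CPM in hypothalamus, ileum, brain and spleen. Pde4d, a cAMP-specific phosphodiesterase, averaged 268 ± 25.03 CPM in iBAT, apart from 81.5 ± 5.11 in hypothalamus and 81.5 ± 6.75 in ileum, and was 64.8 ± 19.9 in brain, 35.4 ± 2.81 in ingSAT, 29.4 ± 2.78 in spleen, 18.9 ± 5.97 in pgVAT and 17.9 ± 2.08 in liver, where hypothalamus overlapped ileum and pgVAT overlapped liver. Without the 22 °C brain library rich in hepatocyte markers, the other brain libraries held 20.9 and 23.3 CPM of Pde3b, below every library of the other tissues. The same libraries held 13.3 and 12.99 CPM of Adrb1, 12.5 and 12.99 of Adra2a, 53.2 and 59.8 of Gnas, 47.5 and 45.1 of Adcy3 and 76.1 and 76.4 of Pde4d. Brain was then apart from the next tissues for Adrb1, Adra2a and Gnas, and still overlapped ingSAT for Adcy3. For Adrb3 they held 2.72 and 1.67 CPM, for Adra1a 13.1 and 16.5 and for Prkar2b 68.5 and 65.4, which still overlapped neighbouring tissues. Per kilobase of merged exon the order in iBAT was Prkar2b at 587 ± 103 CPM per kb, Adrb3 at 100.01 ± 15.5, Pde3b at 76.1 ± 11.4, Adcy3 at 38.3 ± 24.5, Adra1a at 26.1 ± 5.75, Pde4d at 22.4 ± 2.08, Adrb1 and Gnas both near 14.98, and Adra2a at 0.0540 ± 0.0470. On the same scale Adrb3 led in both white depots, at 284 ± 37.1 CPM per kb in pgVAT and 201 ± 53.4 in ingSAT, ahead of Prkar2b at 181 ± 43.2 and 178 ± 14.9, and in ingSAT these differences lay within the spread of the libraries. The place of Gnas in these orders holds for this table only. Its 22 °C mean in iBAT was 28.8 times higher in the warm experiment.

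**Figure D1:**
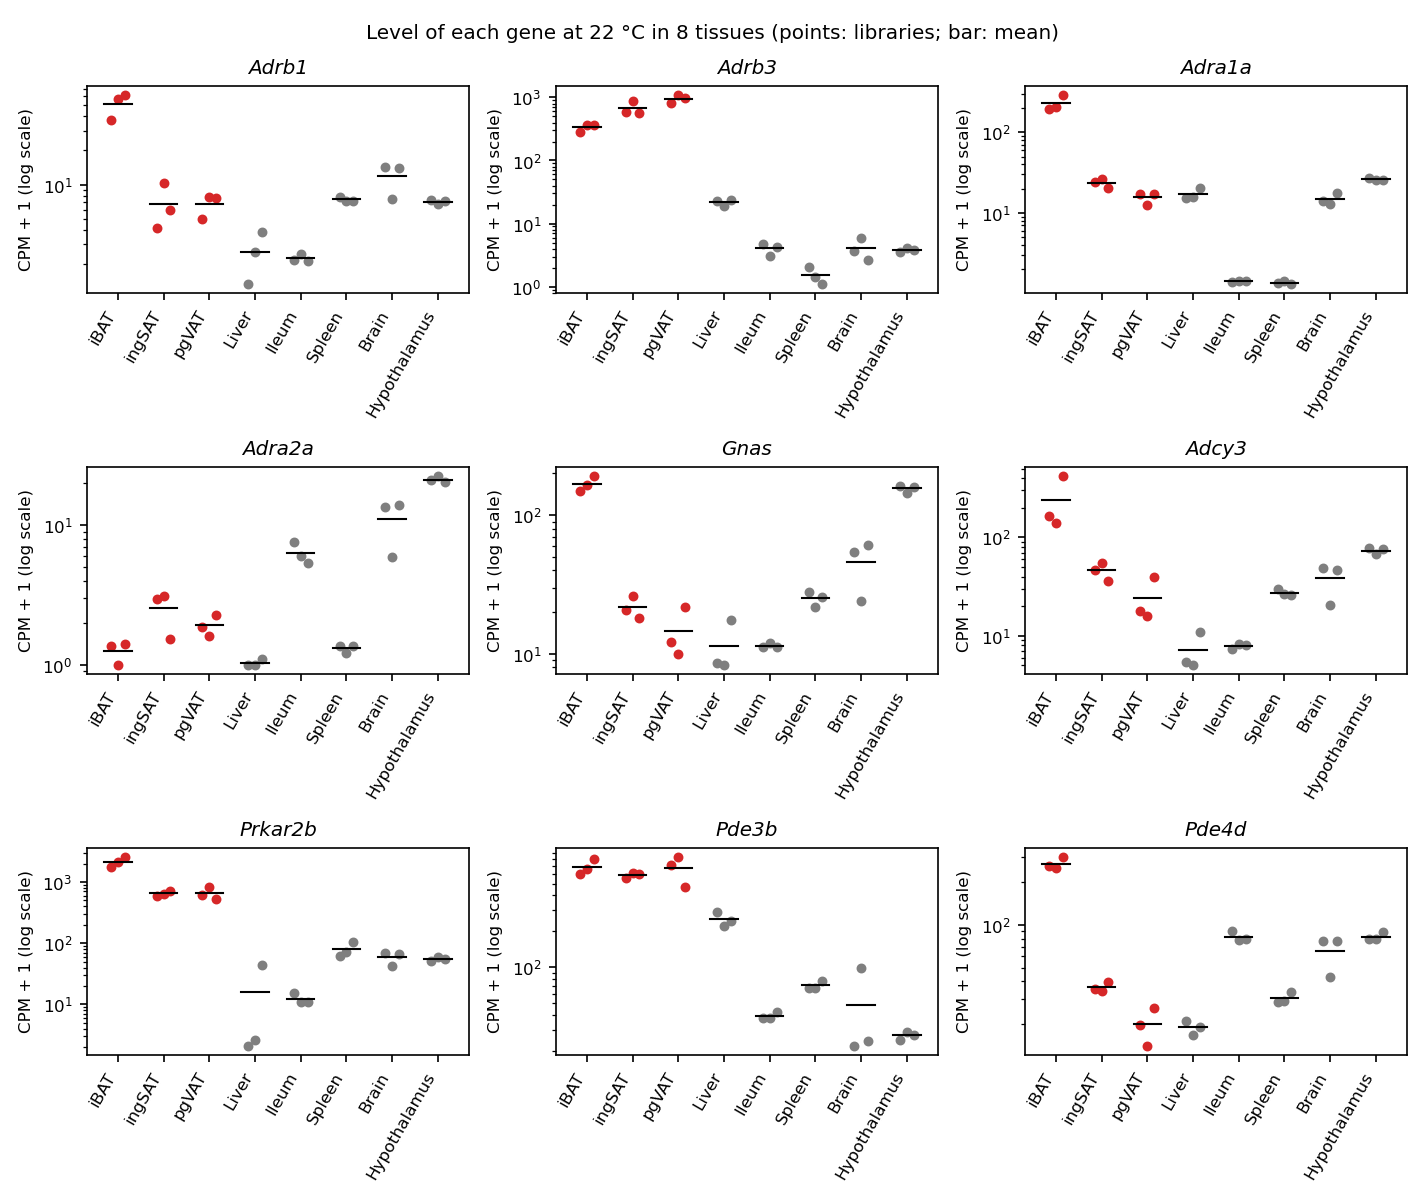
Level of each gene at 22 °C in 8 tissues of the cold experiment, as CPM + 1 on a log axis, with 1 point per library, a bar at the mean and fat depots in red. Each of Prkar2b, Adrb3 and Pde3b is higher in all 3 fat depots than in the other tissues, Adrb1, Adra1a, Adcy3 and Pde4d are highest in iBAT alone, Gnas in iBAT and hypothalamus, and Adra2a in hypothalamus.

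The tissues of the other tables were counted separately and are set beside these without a test. In spinal cord at 22 °C (n = 5) Adra2a averaged 47.9 ± 3.08 CPM, Adcy3 78.3 ± 4.52 and Adra1a 17.7 ± 2.18. In bone marrow at 22 °C (n = 6) Prkar2b averaged 236 ± 27.7 CPM, while Adrb3, Adrb1 and Adra1a averaged 0.111, 0.346 and 0.00984 CPM. Quadriceps at 22 °C (n = 6) held 248 ± 36.7 CPM of Pde4d and under 10 CPM of Prkar2b, Pde3b, Adrb3, Adcy3 and Adra1a. Gnas differed between tables more than any other of the genes: its 22 °C mean in iBAT, scaled within each experiment, was 138 CPM in the cold experiment and 3967 CPM in the warm one, 28.8 times higher. The other tested genes differed by at most 2.12 times between those controls. For iBAT, kit, sequencing site, supplier and gene table all differ between the experiments, so the reason cannot be told apart, and Gnas is compared here only within a table.

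Between depots at 22 °C, 7 of the 8 tested genes differed between iBAT and ingSAT at an adjusted p under 0.05 and a fold above 1.5, when 44.2% of all tested genes did, and the same count between iBAT and pgVAT, when 47.3% did. In both contrasts 6 genes were higher in iBAT and Adrb3 was lower. Adra1a was 9.999-fold higher in iBAT than in ingSAT (log2FC 3.32 ± 0.19 SE, adjusted p = 1.29e-05) and 15.4-fold higher than in pgVAT. Adrb1 was 8.52-fold and 9.096-fold higher in iBAT, Gnas 7.96-fold and 12.4-fold, Adcy3 5.22-fold and 10.2-fold, Pde4d 7.46-fold and 14.2-fold, and Prkar2b 3.24-fold and 3.24-fold. The values of Gnas hold for these libraries only, since its 22 °C mean in iBAT was 28.8 times higher in the warm experiment. Adrb3 was 2.04-fold lower in iBAT than in ingSAT (log2FC -1.03 ± 0.21 SE, edgeR adjusted p = 0.00370) and 2.87-fold lower than in pgVAT. Pde3b did not pass, at log2FC 0.21 ± 0.17 and 0.05 ± 0.25 (SE), and Adra2a was too low in these depots to be tested. For the 7 genes the iBAT libraries stood apart from the white fat libraries in each contrast, and no share over all genes is given here for such separation. Scaling by library size alone shifted the median of all genes from -0.03 to -0.31 and from -0.02 to -0.43, and the share of calls lower in iBAT from 55.3% to 71.1% and from 53.8% to 75.4%, without turning any of the 7 genes, while Pde3b, not called, changed sign.

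In iBAT at 10 °C, Adrb3 and Adcy3 rose and Gnas fell, which makes 3 of the 8 tested genes when 13.2% of all genes tested were called. At an adjusted p under 0.05, 2 of the 8 passed (Adrb3 and Gnas), when 11.3% of all genes did. Adrb3 measured 236, 303 and 293 CPM at 22 °C and 349, 498 and 440.2 CPM at 10 °C. Every 10 °C library was above every 22 °C library, although the lowest of the first and the highest of the second were close. The difference was 1.55-fold (log2FC 0.63 ± 0.17 (SE), adjusted p = 0.0425), and the call was lost without the 10 °C library of replicate 2 or the 22 °C library of replicate 1, at a log2FC of 0.52 in each case. Adrb1, the other beta receptor, measured 30.8, 45.8 and 48.3 CPM at 22 °C and 18.6, 41.7 and 31.4 CPM at 10 °C, with overlapping groups and no call (log2FC -0.45 ± 0.27 (SE), adjusted p = 0.321). Adra1a measured 165, 167 and 229 CPM at 22 °C and 124, 159 and 140.1 CPM at 10 °C. The 10 °C libraries were all lower, by less than the fold limit (log2FC -0.41 ± 0.16 (SE), adjusted p = 0.134). Adra2a had 0 to 8 counts per library and was not tested.

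Downstream of the receptors in iBAT at 10 °C, Gnas measured 127, 134 and 152 CPM at 22 °C and 55.3, 56.1 and 57.9 CPM at 10 °C. The 10 °C libraries lay within a narrow band far under all 22 °C libraries, 2.44-fold lower (log2FC -1.29 ± 0.11 (SE), adjusted p = 0.000421). In the warm experiment the mean of the iBAT controls for Gnas was 28.8 times higher. The part of how Gnas was counted in this fall was not tested. Adcy3 measured 140.1, 112 and 333 CPM at 22 °C and 362, 594 and 384 CPM at 10 °C. The groups did not overlap, but 1 control library (replicate 3) reached almost the level of the cold libraries, and it was also the 22 °C library with the most Ucp1. The rise was 2.29-fold (log2FC 1.19 ± 0.38 (SE), adjusted p = 0.0778), and without that control library log2FC was 1.82. Prkar2b measured 1502, 1761 and 2018 CPM at 22 °C and 1403, 1409 and 1532 CPM at 10 °C and Pde3b 517, 544 and 649 CPM at 22 °C and 449, 532 and 491 CPM at 10 °C, with overlapping groups and log2FC -0.28 ± 0.16 and -0.22 ± 0.14 (SE). Pde4d measured 220.3, 204 and 238 CPM at 22 °C and 132, 198 and 149.99 CPM at 10 °C, all cold libraries lower, again within the fold limit (log2FC -0.47 ± 0.16 (SE), adjusted p = 0.0958). Without the 10 °C library of replicate 2, Adrb1 and Pde4d were called lower (log2FC -0.73 and -0.63). The median log2FC of the 8 tested genes was -0.35, against -0.02 over all genes. Summed adipocyte markers ran from 16107 to 18367 CPM at 22 °C and from 17504 to 18642 CPM at 10 °C, with 0 of 7 called. Skeletal muscle markers fell for 5 of 6, from sums of 8481, 6273 and 6043 CPM to 4384, 4882 and 2329.6 CPM, hepatocyte markers ran from 41.3 to 75.8 CPM to 0.191 to 0.816 CPM and epididymis markers from 0 to 0.0417 CPM to 3.13 to 34.9 CPM, and the part of these in the results was not tested. Scaling by library size alone shifted the median of all genes to -0.18 and the share of calls that were lower from 54.7% to 75.5%. Adrb3 was then not called (log2FC 0.47), whereas Adrb1 and Pde4d were called lower (log2FC -0.62 and -0.63).

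In iBAT at 34 °C, 6 of the 8 tested genes fell and none rose: Adrb3, Adra1a, Gnas, Adcy3, Prkar2b and Pde4d. Over all tested genes 19.4% were called and 7.19% were called lower. At an adjusted p under 0.05, 5 of the 8 passed, when 28.9% of all genes did. Adrb3 measured 243, 351 and 219 CPM at 22 °C and 109.8, 193 and 60.5 CPM at 34 °C. The groups did not overlap, and the warm libraries spread over a wide range. Adrb3 fell 2.24-fold (log2FC -1.16 ± 0.39 (SE), adjusted p = 0.0619), and the call was lost without the 34 °C library numbered 1 (log2FC -1.10). Adra1a measured 100.04, 85.3 and 104 CPM at 22 °C and 35.3, 36.2 and 49.8 CPM at 34 °C, a 2.39-fold fall with well separated groups (log2FC -1.26 ± 0.15 (SE), adjusted p = 0.00259). Adrb1 measured 35.5, 16.7 and 18.8 CPM at 22 °C and 23.4, 38.7 and 15.97 CPM at 34 °C, with overlap in both directions (log2FC 0.14 ± 0.38 (SE), adjusted p = 0.804). Adra2a had under 0.3 CPM in every library and was not tested.

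Adcy3 in iBAT of the warm experiment measured 405, 344 and 316 CPM at 22 °C and 142, 108 and 163 CPM at 34 °C. All warm libraries were under all controls by a wide margin, a 2.57-fold fall (log2FC -1.36 ± 0.17 (SE), adjusted p = 0.00269), the largest of the 8. Pde4d measured 177, 222 and 165 CPM at 22 °C and 94.9, 90.1 and 96.7 CPM at 34 °C and fell 2.002-fold (log2FC -1.001 ± 0.12 (SE), adjusted p = 0.00263), the warm libraries lying close together. Prkar2b measured 1488, 1149 and 1464 CPM at 22 °C and 808, 841 and 882 CPM at 34 °C and fell 1.62-fold (log2FC -0.70 ± 0.12 (SE), adjusted p = 0.00799). The controls of Prkar2b and Pde4d were all above the warm libraries. Gnas measured 4625, 3393 and 3881 CPM at 22 °C and 2603, 2192 and 2804 CPM at 34 °C and fell 1.57-fold (log2FC -0.65 ± 0.15 (SE), adjusted p = 0.0198), a change near the fold limit that was not called without the 22 °C library numbered 1 or the 34 °C library numbered 2 (log2FC -0.52 and -0.57). Pde3b measured 256, 259 and 292 CPM at 22 °C and 223, 224 and 276 CPM at 34 °C, overlapping (log2FC -0.16 ± 0.12 (SE), adjusted p = 0.332). The median log2FC of the 8 genes was -0.85, against 0.02 over all genes. Scaling by library size alone shifted the latter to 0.30 and the share of calls that were lower from 37.1% to 11.6%, Gnas and Prkar2b were then not called (log2FC -0.37 and -0.43), and the other 4 were, while Pde3b, not called, changed sign. Summed adipocyte markers were 21277, 19834 and 22417 CPM at 22 °C and 17418, 20181 and 20342 CPM at 34 °C, with 1 of 7 called, brown adipocyte markers summed to 13942, 10792 and 11749 CPM and 5775, 7152 and 6540.3 CPM, with 2 of 6 called lower, while skeletal muscle markers ran unevenly, at 2.87, 4473 and 8.38 CPM and 3539.9, 953 and 1099.8 CPM, and their part was not tested.

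**Figure D2:**
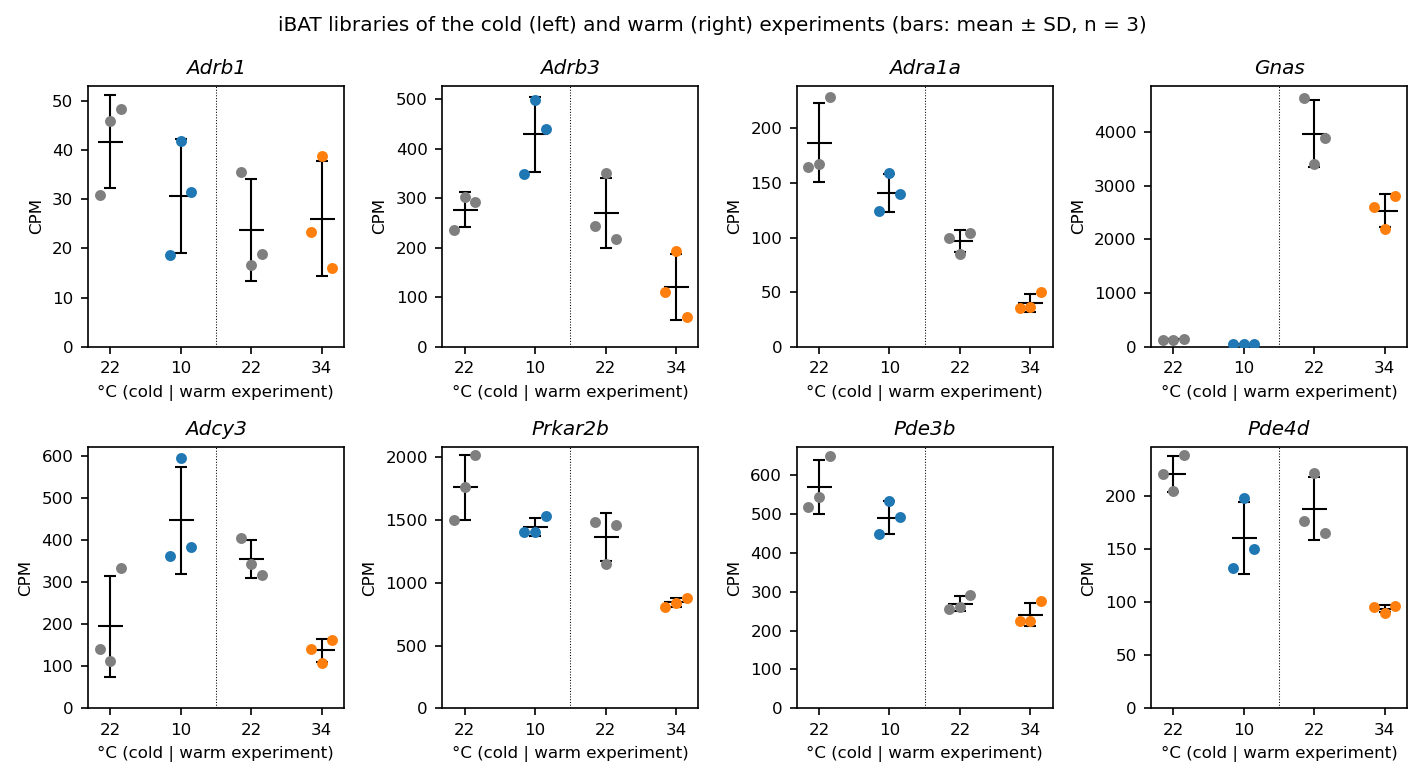
CPM of 8 genes in every iBAT library, with the cold experiment left and the warm experiment right of the dotted line in each panel, and bars for mean ± SD (n = 3). Adrb3 and Adcy3 lie higher at 10 °C and lower at 34 °C than their own 22 °C controls, Gnas lies lower in both, and the Gnas panel shows the 28.8 times higher controls of the warm experiment.

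Set side by side, the experiments have separate controls, and the direction of the change differed between them for Adrb3 (log2FC 0.63 at 10 °C and -1.16 at 34 °C) and Adcy3 (1.19 and -1.36), whereas Gnas fell in both (-1.29 and -0.65). A test of that difference between experiments was not made. The ratio of Adrb3 to Adrb1 counts, which does not depend on how libraries are scaled, was 7.65, 6.61 and 6.07 in the 22 °C libraries and 18.7, 11.9 and 13.997 in the 10 °C libraries of iBAT, so that every cold library had a higher ratio than every control. In the warm experiment it was 6.85, 21.05 and 11.6 at 22 °C and 4.69, 4.97 and 3.79 at 34 °C, and every warm library had a lower ratio. The mean log2 ratio differed by 1.12 (2.75 ± 0.17 at 22 °C and 3.87 ± 0.33 at 10 °C, SD, n = 3) and by -1.41 (3.57 ± 0.81 and 2.15 ± 0.21). Both gave p = 0.1 in a two-sided exact permutation test, the smallest that 3 against 3 libraries allow.

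In ingSAT at 10 °C, Adra1a alone was called, 1 of 9 tested genes when 16.3% of all genes were. The same gene passed at an adjusted p under 0.05, when 7.51% of all genes did. Adra1a measured 24.9, 26.2 and 20.97 CPM at 22 °C and 51.3, 53.3 and 55.2 CPM at 10 °C. The groups were narrow and far apart, a 2.22-fold rise (log2FC 1.15 ± 0.12 (SE), adjusted p = 0.00662). Pde4d measured 37.1, 34.6 and 42.01 CPM at 22 °C and 51.3, 52.1 and 51.8 CPM at 10 °C, also without overlap, a difference too small for the fold limit (log2FC 0.45 ± 0.11 (SE), adjusted p = 0.0579). Adrb3 measured 624, 929 and 618 CPM at 22 °C and 739, 550.3 and 649.9 CPM at 10 °C, with overlapping groups (log2FC -0.16 ± 0.21 (SE), adjusted p = 0.645). The remaining genes overlapped too, with log2FC 0.56 for Adrb1, -0.02 for Gnas, 0.32 for Adcy3, 0.14 for Prkar2b and -0.17 for Pde3b. Adra2a, with 2.102, 2.199 and 0.594 CPM at 22 °C and 0.663, 0.288 and 0.962 CPM at 10 °C, had 4 to 31 counts per library and log2FC -1.33 ± 0.65 (SE, adjusted p = 0.227). Without the 22 °C library of replicate 2, Adrb1 was called higher too (log2FC 1.05), and without that of replicate 3, Adra2a was called lower (log2FC -1.72). Beside these values, all 6 brown adipocyte markers rose in ingSAT, from sums of 211, 209.998 and 119.7 CPM to 1970.4, 2505 and 2102 CPM, and at 22 °C, over the same control libraries, Adra1a was 9.999-fold higher in iBAT than in ingSAT. The part of that list in the rise of Adra1a was not tested.

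In pgVAT at 10 °C none of the 9 genes was called by edgeR's test, which called 7.94% of all genes, and 0 had an unadjusted p under 0.05. DESeq2 called 2 (Prkar2b and Adrb3), when it called 1610 of all 14856 genes. Adrb3 measured 888, 1233 and 1158 CPM at 22 °C and 292, 1029 and 330.4 CPM at 10 °C. The 10 °C libraries of replicates 1 and 3 were far under the controls and that of replicate 2 was among them (log2FC -0.99 ± 0.56 (SE), adjusted p = 0.625). Prkar2b measured 668, 957 and 621 CPM at 22 °C and 284, 601 and 147 CPM at 10 °C, all cold libraries lower (log2FC -1.12 ± 0.55 (SE), adjusted p = 0.598). Pde3b measured 769.9, 952 and 549 CPM at 22 °C and 404, 1002 and 275 CPM at 10 °C, with the highest value of all in cold replicate 2 (log2FC -0.43 ± 0.55 (SE), adjusted p = 0.834). Adrb1, Adra1a, Adra2a, Gnas, Adcy3 and Pde4d overlapped between groups, at log2FC -0.49 to 1.05. With library size alone Prkar2b was called lower, and the share of calls over all genes that were lower went from 43.8% to 59.4%. Without cold replicate 2, which leaves cold replicates 1 and 3, the genes called lower were Adrb3 (log2FC -1.82), Prkar2b (-1.81), Pde3b (-1.17) and Adra1a (-0.87). The share of all genes called in that fit is not given here. Without cold replicate 1 Adrb1 was called higher (log2FC 1.52), and without control replicate 3 Gnas was (log2FC 0.95).

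The same cold replicates 1 and 3 of pgVAT held markers of epididymis, the organ this depot is attached to. The 5 epididymis markers summed to 2894, 970.4 and 634 CPM at 22 °C and 17886, 3.59 and 21105 CPM at 10 °C, all 5 detected in both groups. The 7 adipocyte markers summed to 23029, 34057 and 22925 CPM and 13428, 31879.5 and 10037 CPM, so the libraries richest in epididymis markers were the poorest in adipocyte markers. The 22 °C library of replicate 3 held 308 CPM of Ucp1, against 1.19 and 3.74 CPM in the other controls. Per 1000 CPM of adipocyte markers, Adrb3 was 38.5, 36.2 and 50.5 at 22 °C and 21.8, 32.3 and 32.9 at 10 °C, Prkar2b 29.03, 28.1 and 27.1 and 21.1, 18.8 and 14.7, and Pde3b 33.4, 27.95 and 23.9 and 30.1, 31.4 and 27.4, a scale chosen after seeing the data. On that scale the groups overlapped for Pde3b and not for Prkar2b, as in CPM, while those of Adrb3, which overlapped in CPM, did not. Adra1a and Adcy3 overlapped on both scales.

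**Figure D3:**
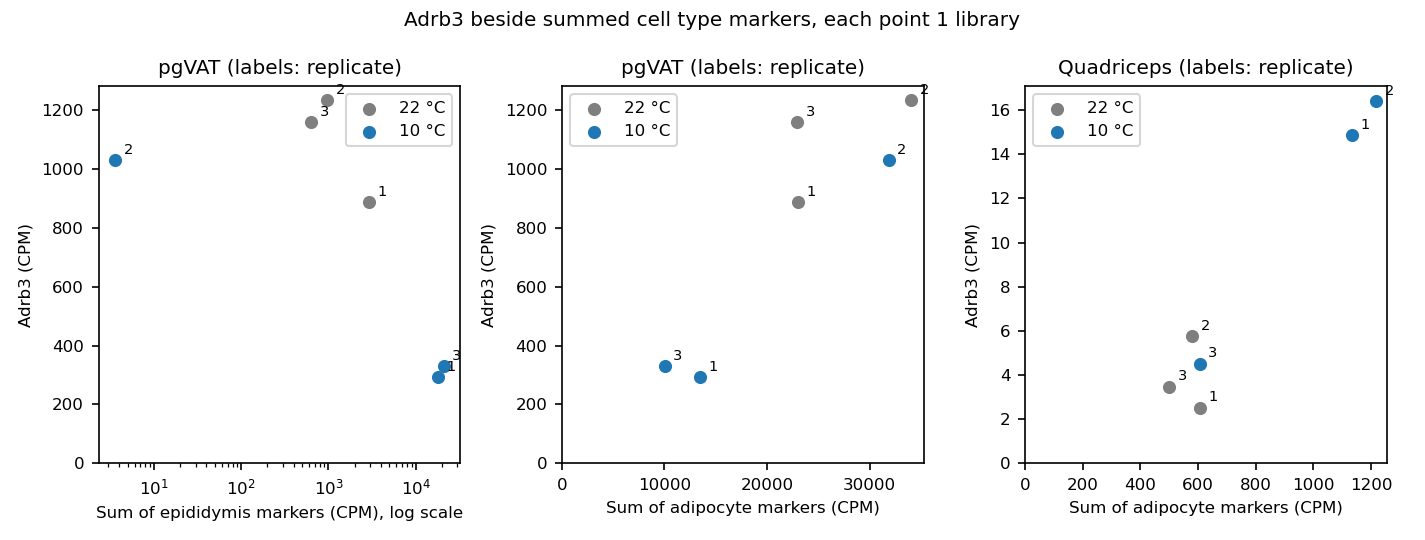
Adrb3 (CPM) against summed epididymis markers (log axis) and adipocyte markers in pgVAT, and against adipocyte markers in quadriceps, with 1 point per library, gray for 22 °C and blue for 10 °C. The pgVAT libraries low in Adrb3 (292 and 330.4 CPM) are those with the most epididymis and the least adipocyte markers, and the quadriceps libraries high in Adrb3 (14.9 and 16.4 CPM) are those with the most adipocyte markers.

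Whether the cold response differed between depots was tested with an interaction term over the 18 libraries of the 3 depots. The fit treated these libraries as independent, although those of different depots can come from the same mice. At an adjusted p under 0.05, 0 of the 8 tested genes differed between any pair by edgeR's test, and 0.0691% of all genes did between iBAT and ingSAT, 0.407% between iBAT and pgVAT and 0.159% between ingSAT and pgVAT. Before adjustment, p was under 0.05 for 3, 3 and 2 of the 8. The percentages above do not apply to that looser limit, for which no share over all genes is given here. Nearest to the limit, the response of Adra1a was higher in ingSAT than in pgVAT by 1.64 ± 0.32 on the log2 scale (adjusted p = 0.0532) and differed between iBAT and ingSAT by -1.53 ± 0.31 (adjusted p = 0.0726), and that of Gnas between iBAT and pgVAT by -1.75 ± 0.40 (adjusted p = 0.0628). The count was 1 with library size alone (Adra1a) and 5 without the 10 °C pgVAT library of replicate 2 (Adra1a, Prkar2b, Gnas, Pde3b and Adrb3), and 1 without the 10 °C pgVAT library of replicate 1 or either of the 22 °C pgVAT libraries of replicates 2 and 3. Shares over all genes in these other fits are not given here.

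**Figure D4:**
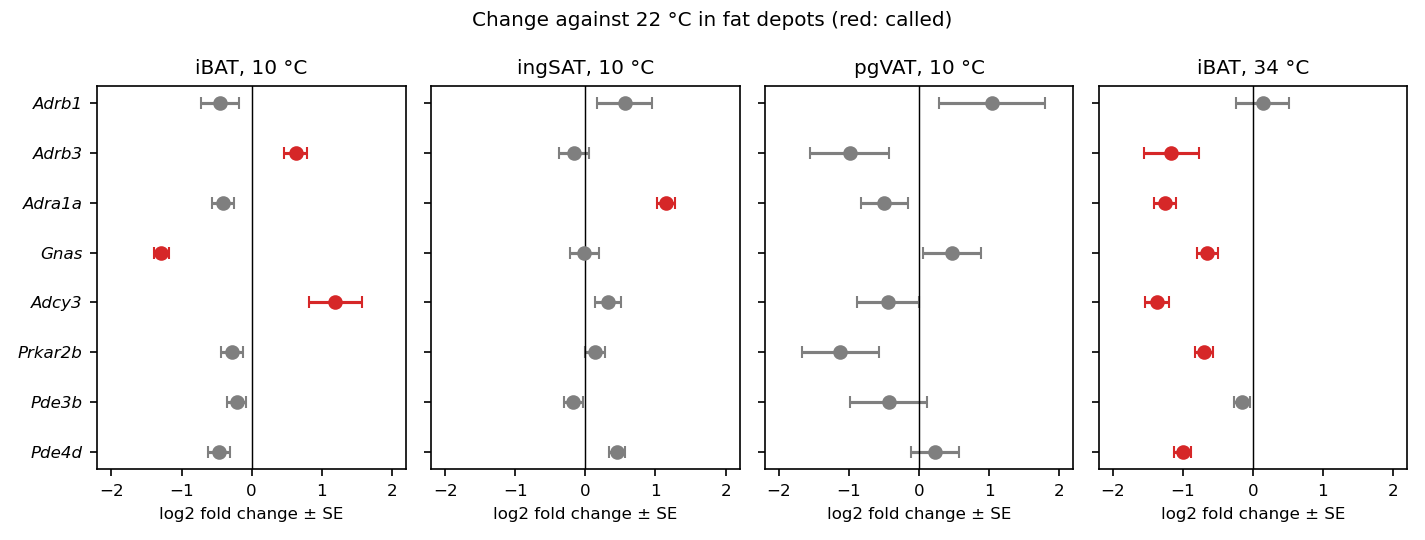
log2FC ± SE against 22 °C in iBAT, ingSAT and pgVAT at 10 °C and in iBAT at 34 °C, for 8 genes, with called genes in red. Adrb3, Gnas and Adcy3 are called in iBAT at 10 °C, Adra1a in ingSAT, none in pgVAT and 6 genes, all lower, in iBAT at 34 °C.

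Outside fat, 6 calls were made at 10 °C over 8 tissues, 5 of them in quadriceps and 1 in liver, and none of the 6 had an adjusted p under 0.05. In quadriceps 5 of the 7 tested genes rose, when 3.83% of all genes were called: Adrb3 (1.60 ± 0.49), Adra1a (1.13 ± 0.20), Adcy3 (1.22 ± 0.36), Prkar2b (1.99 ± 0.44) and Pde3b (1.38 ± 0.40, log2FC ± SE). Their edgeR adjusted p ran from 0.143 to 0.400. Prkar2b measured 3.52, 6.01 and 3.44 CPM at 22 °C and 21.8, 22.6 and 7.29 CPM at 10 °C, and Adrb3 2.52, 5.78 and 3.48 CPM at 22 °C and 14.9, 16.4 and 4.52 CPM at 10 °C. In both genes 2 cold libraries were high and the third lay near the controls. Pde3b (2.86, 5.43 and 3.72 CPM at 22 °C and 12.8, 13.7 and 4.93 CPM at 10 °C) and Adcy3 (4.26, 2.89 and 3.05 CPM at 22 °C and 10.3, 9.46 and 3.96 CPM at 10 °C) showed the same library low. Adra1a measured 2.33, 2.12 and 2.63 CPM at 22 °C and 5.32, 5.98 and 4.205 CPM at 10 °C, and all 3 cold libraries were above the controls. Gnas (1035, 1127 and 1197 CPM at 22 °C and 1034, 925 and 1098 CPM at 10 °C) and Pde4d (161, 182 and 225 CPM at 22 °C and 167, 154 and 187 CPM at 10 °C) overlapped and were not called (log2FC -0.14 ± 0.14 and -0.16 ± 0.15), and Adrb1 and Adra2a were too low to be tested. Scaling by library size alone moved the median of all genes from 0.02 to 0.25, the share of calls that were lower from 19.4% to 4.39%, and Gnas and Pde4d from just below to just above 0, with the same 5 calls. Against all 6 quadriceps libraries at 22 °C the 5 were called too, with a log2FC of 1.17 for Prkar2b and 0.90 for Pde3b.

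The cold libraries high in Adrb3, Adcy3, Prkar2b and Pde3b were also high in adipocyte markers. Adra1a was above the controls in every cold library, also in the one near the controls in these markers. Of 7 adipocyte markers 5 rose in quadriceps at 10 °C, and their sums were 608, 579.7 and 500.1 CPM at 22 °C and 1133, 1218 and 607 CPM at 10 °C, the third cold library again lying near the controls. Ucp1 was 0.0476, 0.0578 and 0.395 CPM at 22 °C and 120.3, 95.1 and 27.6 CPM at 10 °C, and the 5 epididymis markers summed to 200.04 CPM in 1 cold library and under 0.1 CPM in the other 5. Per 1000 CPM of adipocyte markers, Adrb3 was 4.15, 9.96 and 6.95 at 22 °C and 13.1, 13.5 and 7.46 at 10 °C, Prkar2b 5.796, 10.4 and 6.88 and 19.3, 18.5 and 12.02, and Adra1a 3.84, 3.65 and 5.26 and 4.696, 4.91 and 6.93. Adcy3 was 7.01, 4.98 and 6.09 at 22 °C and 9.11, 7.76 and 6.52 at 10 °C, and Pde3b 4.70, 9.37 and 7.44 and 11.3, 11.2 and 8.13. The groups overlapped on that scale for Adrb3, Adra1a, Adcy3 and Pde3b and not for Prkar2b. Those of Adra1a did not overlap in CPM. At 34 °C, Prkar2b (17.8, 8.02 and 7.67 CPM at 22 °C and 3.59, 1.102 and 7.64 CPM at 34 °C) and Pde3b (10.5, 4.898 and 6.54 CPM at 22 °C and 2.69, 2.67 and 5.28 CPM at 34 °C) were called lower, 2 of 7 tested genes when 1.21% of all genes were called. Their log2FC was -1.44 ± 0.59 and -1.04 ± 0.35 (SE). Neither passed adjustment (adjusted p = 1 for both), and both calls were lost against all 6 quadriceps libraries at 22 °C (log2FC -0.92 and -0.68), without the 34 °C library numbered 1 (-1.35 and -0.88) or 2 (-0.997 and -0.88), and without the 22 °C library numbered 1 (-0.94 and -0.69). With library size alone the share of calls that were lower went from 76.1% to 86.5% over all genes. That control library had the most adipocyte markers of its comparison, whose sums were 963, 653 and 567 CPM at 22 °C and 559, 438 and 626 CPM at 34 °C.

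In liver at 10 °C, Adrb3 fell, 1 of 7 tested genes when 3.28% of all genes were called. It measured 12.2, 9.88 and 12.4 CPM at 22 °C and 7.92, 8.03 and 5.97 CPM at 10 °C. All cold libraries were below the controls, 1.58-fold (log2FC -0.66 ± 0.15 (SE), adjusted p = 0.112), and without the 10 °C library of replicate 3 the change was under the fold limit (log2FC -0.53). With library size alone the call was kept, and the share of calls over all genes that were lower went from 77.5% to 87.9%. At 34 °C Adrb3 in liver measured 21.2, 16.9 and 16.9 CPM at 22 °C and 16.5, 18.1 and 19.1 CPM at 34 °C, with log2FC -0.04 ± 0.12 (SE). Prkar2b in liver reached 22.97 CPM in the 22 °C library of replicate 3 against 0.603 and 0.903 CPM in the other controls and 1.17, 4.59 and 0.926 CPM at 10 °C, and the same library held 263 CPM of adipocyte and 76.6 CPM of skeletal muscle markers, against at most 103 and 14.2 CPM in the other liver libraries. Prkar2b was not called (log2FC -1.89 ± 1.17, SE), but was called lower without control replicate 1 or 2 (log2FC -2.45 and -2.43), which leaves the high library in. Without that library the direction turned (log2FC 1.53, not called). Pde3b, which had the highest level per kilobase of the 9 genes in liver of the cold experiment (27.4 ± 3.70 CPM per kb at 22 °C, ahead of Adrb3 at 6.21 ± 0.772), measured 158, 121 and 132 CPM at 22 °C and 127, 132 and 128 CPM at 10 °C and was not called.

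No gene of the 9 was called at 10 °C in ileum (8 tested), spleen (6), brain (9), hypothalamus (9), bone marrow (6) or spinal cord (9), where 2.71%, 2.68%, 2.72%, 0.578%, 1.29% and 0.271% of all genes were called by edgeR's test. DESeq2 called 2 in brain (Adrb3 and Pde3b), when it called 386 of all 14423 genes there, and 0 in each of the others. With an unadjusted p under 0.05 in edgeR's test there were 0, 2, 1, 0, 1 and 0 genes, and no share over all genes is given here for that limit. The 2 in spleen were Prkar2b (log2FC -0.52 ± 0.20) and Pde4d (-0.26 ± 0.10), and that in bone marrow was Pde4d, with 24.5, 29.9 and 35.1 CPM at 22 °C and 31.7, 35.9 and 36.996 CPM at 10 °C (lowest, median and highest of 6; log2FC 0.22 ± 0.08). In hypothalamus, which holds the centre of temperature control, the 9 values of log2FC lay between -0.19 and 0.12, and in spinal cord between -0.11 and 0.22. Adra2a, highest in these nervous tissues, measured 24.7, 26.6 and 23.4 CPM at 22 °C and 23.6, 24.3 and 23.6 CPM at 10 °C in hypothalamus and 43.3, 50.1, 47.9, 47.4 and 51.1 CPM at 22 °C and 44.5, 50.3, 47.3, 54.6 and 47.4 CPM at 10 °C in spinal cord, with overlap in both. In brain, the 22 °C library rich in hepatocyte markers had 124 CPM of Pde3b and 6.201 CPM of Adrb3, against 21.6 and 23.8 and 2.805 and 1.705 CPM in the other controls. With it the log2FC of Pde3b was -1.31 and of Adrb3 -1.18, and without it -0.01 and -0.49. Adrb1 in brain measured 13.8, 8.198 and 13.3 CPM at 22 °C and 16.4, 19.6 and 16.5 CPM at 10 °C, at log2FC 0.57 with that library and 0.37 without it (fold under the limit). Leaving out other single libraries called Adrb1 in brain without control replicate 1 (log2FC 0.70), Adrb3 in brain without control replicate 3 (-1.52), Adrb3 in ileum without cold replicate 3 (1.07) and Prkar2b in spleen without cold replicate 3 or control replicate 1 (-0.61 and -0.66).

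At 34 °C, ileum (7 tested), liver (5) and brain (9) gave 0 calls by edgeR's test and 0 by DESeq2, where 2.83%, 3.38% and 0.193% of all genes were called. The unadjusted p, for which no share over all genes is given here, was under 0.05 for 0, 1 and 0 genes, the 1 being Pde4d in liver, with 5.41, 3.76 and 4.05 CPM at 22 °C and 6.76, 7.72 and 5.19 CPM at 34 °C (log2FC 0.57 ± 0.21 (SE), adjusted p = 0.347), whose groups overlapped. It was called without the 22 °C library numbered 1 or the 34 °C library numbered 3 (log2FC 0.75 and 0.71). Adcy3 in brain measured 78.9, 77.5 and 78.8 CPM at 22 °C and 83.9, 83.6 and 83.02 CPM at 34 °C, without overlap but at log2FC 0.09 ± 0.05 (SE).

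**Figure D5:**
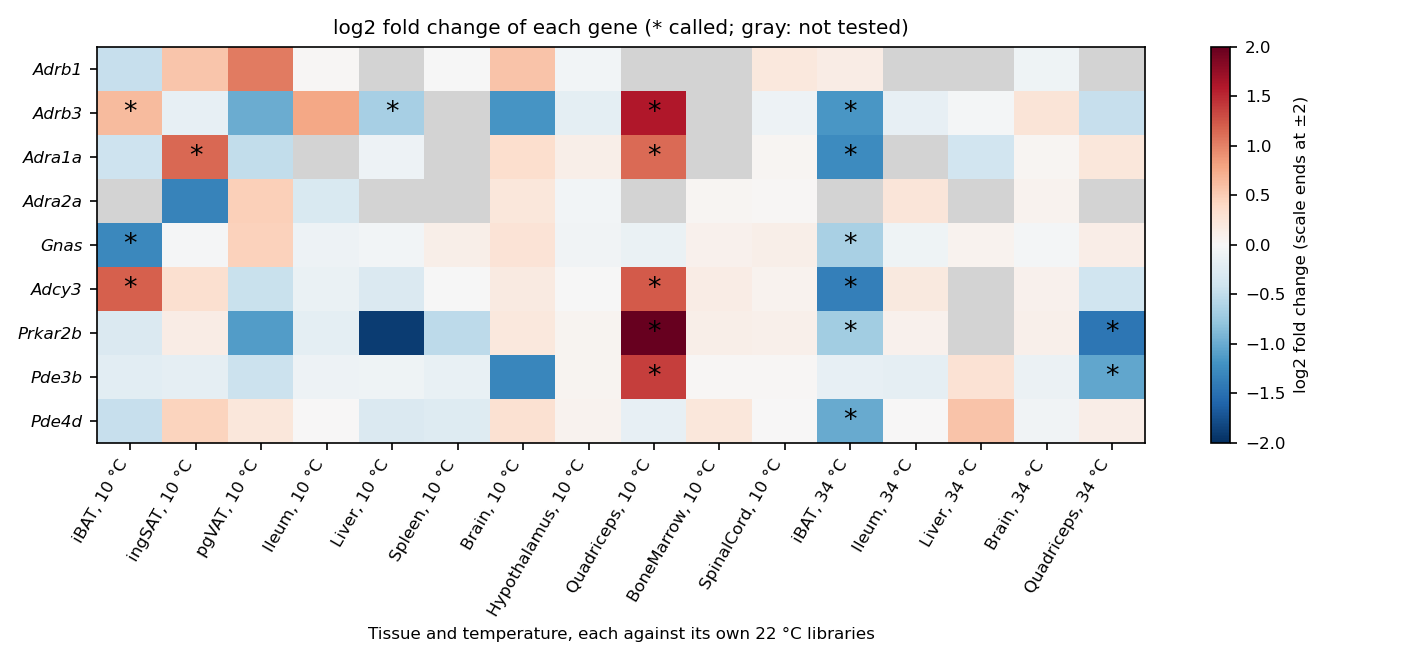
log2 fold change of each gene against its own 22 °C libraries in 11 tissues at 10 °C and 5 at 34 °C, with red for higher, blue for lower, gray for genes not tested and an asterisk for called genes. Calls fall in iBAT, ingSAT, liver and quadriceps at 10 °C and in iBAT and quadriceps at 34 °C, and the dark cells of Prkar2b in liver and Pde3b in brain, which carry no asterisk, are those in which 1 control library stood above the others.

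Among all 8 tissues of the cold experiment that share a table, the 10 °C response differed between tissues for 2 of the 9 genes, Adra1a (adjusted p = 0.00813) and Gnas (adjusted p = 0.0364), by edgeR's test of all tissue by temperature terms together, when 16.1% of all genes did. Adra1a ranged from log2FC -0.49 in pgVAT and -0.41 in iBAT to 1.15 in ingSAT, and Gnas from -1.29 in iBAT to 0.47 in pgVAT, each taken from the fit of its own tissue. The test among tissues also treated libraries of different tissues as independent. The Gnas result holds for these libraries only, since its 22 °C mean in iBAT was 28.8 times higher in the warm experiment. Without the brain library rich in hepatocyte markers, a choice made after seeing the data, Pde4d passed as well (adjusted p = 0.0444). Among the 5 tissues of the warm experiment the 34 °C response differed for Pde4d (adjusted p = 0.000194) and Adcy3 (adjusted p = 0.000423), 2 of 9 when 12.8% of all genes did. Adcy3 had log2FC -1.36 in iBAT, -0.40 in quadriceps, 0.09 in brain and 0.20 in ileum, and Pde4d -1.001 in iBAT, -0.07 in brain, 0.01 in ileum, 0.13 in quadriceps and 0.57 in liver.

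Beside the 9 genes, 82 others of the same pathway in 10 lists were counted. In iBAT at 10 °C, 17 of 75 tested were called (4 higher, 13 lower), and 7 of the 9 tested cAMP response genes fell (Nr4a1, Nr4a2, Nr4a3, Per1, Dio2, Sik1 and Ppargc1a) while Ucp1 rose. The largest rise was that of Adcy10, the soluble adenylyl cyclase (8.97 ± 4.55 to 72.3 ± 5.35 CPM, log2FC 3.05 ± 0.31 SE), and the largest fall that of Nr4a3, an immediate early nuclear receptor gene (13.04 ± 2.51 to 1.64 ± 0.592 CPM, log2FC -3.01 ± 0.27 SE). The median of the cAMP response genes was -0.97 against -0.02 over all genes. In iBAT at 34 °C, 19 of 71 were called (6 higher, 13 lower), among them 5 of 9 cAMP response genes lower and 0 higher, with a list median of -1.45 against 0.02. The largest fall was that of Nr4a3 (3.68 ± 5.18 to 0.216 ± 0.189 CPM, log2FC -4.09 ± 1.38 SE), whose controls ran unevenly from 0.552 to 9.66 CPM. Endothelial and macrophage markers rose in these libraries, 2 of 4 in each list, and their part in these counts was not tested. In ingSAT at 10 °C, 22 of 78 were called (9 higher, 13 lower). Its largest rise was that of Ucp1 (8.298 ± 6.66 to 1330.3 ± 240.5 CPM, log2FC 7.35 ± 0.69 SE) and its largest fall that of Adra1b, the alpha-1B receptor (3.35 ± 1.51 to 0.853 ± 0.348 CPM, log2FC -1.96 ± 0.49 SE). In pgVAT at 10 °C, 9 of 81 were called (2 higher, 7 lower), from Adra2c, an alpha-2 receptor (1.22 ± 0.415 to 14.5 ± 13.1 CPM, log2FC 3.50 ± 1.07 SE), to Fos, an immediate early gene (45.8 ± 6.75 to 12.001 ± 1.46 CPM, log2FC -1.93 ± 0.23 SE). In both iBAT comparisons and in ingSAT the called shares of the lists, 22.7%, 26.8% and 28.2%, stand beside 13.2%, 19.4% and 16.3% over all genes, and in pgVAT 11.1% beside 7.94%. In quadriceps at 10 °C, 5 of 69 were called, all higher, 7.25% beside 3.83%. List genes other than the largest rise and fall of a comparison were named after their values were seen.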

How the data were processed

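RNA was sequenced from 11 tissues in 106 libraries, grouped by the tissue and temperature of their labels. The deposited files hold raw counts per gene in 4 tables, made by the authors without normalization; the submitters' processing notes name STAR 2.5.3a, HTSeq 0.6p1 and Picard 1.141. The 8-tissue libraries were sequenced at a different site from the others, and a stranded kit is stated only for the latter (for quadriceps in the labels, while the study's methods name another kit for quadriceps of the cold experiment). Ensembl identifiers of the 8-tissue table were matched to symbols for 21583 of 21647. All 106 columns were used, those of the tissues outside that table only by group where their numbers are not in the labels. The 6 quadriceps libraries at 22 °C were divided between the experiments by the prefix of their column names.

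Counts were analysed in edgeR 4.0.16 (R 4.3.3) with TMM factors, genes above an average log2 CPM of 0, and the quasi-likelihood test, called at p of at most 0.05 and fold above 1.5 for temperature and at an adjusted p (Benjamini-Hochberg) under 0.05 for depots (with the fold limit) and interactions. Alternatives were DESeq2 1.42.0, edgeR's exact test, other scalings, other filters, a replicate block and leaving out each library. Ratios used counts + 0.5 and an exact permutation test (scipy 1.17.1, Python 3.11.15), and plots matplotlib 3.10.9. The fits were tested on simulated counts. Depth was 4262403 to 25964912 counts per library in the 8-tissue table and 15591374 to 62880248 in the others, so levels under 1 CPM rest on few counts. All 9 genes were named in every comparison, of the 10 pathway lists the largest rise and fall (1 of these is not reported here), and per gene the 3 most similar genes. The genes, lists and limits were chosen with earlier results of these data known. Columns of the authors' own comparisons (fold changes and p-values) were not used.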

Additional observations from a re-analysis of the deposited data

Results flagged for a closer look

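In 4 cases the response to temperature differed between tissues by a test of the difference itself: Adra1a (adjusted p = 0.00813) and Gnas (adjusted p = 0.0364) among 8 tissues at 10 °C, and Adcy3 (adjusted p = 0.000423) and Pde4d (adjusted p = 0.000194) among 5 tissues at 34 °C, all by edgeR's quasi-likelihood test. By the same tests 16.1% of all genes differed at 10 °C and 12.8% at 34 °C.

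In 7 of 45 groups of 4 to 10 libraries, 1 library lay far from the others, where chance alone picks out about 1 in 20. Prkar2b in quadriceps at 22 °C was 22.2 CPM in 1 library and 4.56 to 10.1 CPM in the others, a gap of 0.686 of the group's range. That group joined the controls of the cold and warm experiments, and the part of the experiment in the gap was not tested. Pde3b in bone marrow at 22 °C was 32.9 CPM in replicate 5 and 25.6 to 27.3 CPM in the others (gap 0.766 of the range). In spinal cord at 10 °C, replicate 4 was highest in Gnas, at 2533 CPM against 2015 to 2149 CPM (0.741), and in Adcy3, at 92.8 CPM against 77.0 to 81.0 CPM (0.746). Adcy3 in spinal cord at 22 °C was 86.1 CPM in replicate 2 and 74.5 to 77.6 CPM in the others (0.727). Adra1a in bone marrow had a single count in 1 library at 22 °C and in 1 at 10 °C and none in the other 10, so the gap was the whole range (1.0) in both.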

How the results depend on the processing

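Of the log2 fold changes of single genes recomputed under other settings, 1755 kept their side of the limits, 29 were newly called and 18 lost their call. A sign change occurred in 86 of the 1755, all of values that were not called, and in 0 called values. With library size alone the share of calls over all genes that were lower also went from 46.7% to 61.3% in ileum at 10 °C and from 47.6% to 63.5% in liver at 34 °C, where no gene of the 9 was called. The numbers of called genes that moved by over 1.5 times were these. In pgVAT at 10 °C the 0 calls became 2 with DESeq2 and 1 with library size alone. Outside fat the 6 calls at 10 °C became 0 at an adjusted p under 0.05, and the 2 at 34 °C became 1 with DESeq2, 0 against all 6 quadriceps libraries at 22 °C and 0 at an adjusted p under 0.05. The depot interactions went from 0 to 1 with library size alone, and the differences among tissues from 2 to 4 at 10 °C and from 2 to 5 at 34 °C with DESeq2's likelihood ratio test. Shares over all genes in these other fits of interactions and of differences among tissues are not given here. The cause of these moves was not tested.

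With each library left out in turn, there were 2 to 4 calls in iBAT at 10 °C, 1 to 2 in ingSAT, 0 to 4 in pgVAT, 5 to 7 in the other 8 tissues, 5 to 6 in iBAT at 34 °C and 0 to 3 in the other 4 tissues, 7 to 8 between iBAT and ingSAT and 7 to 7 between iBAT and pgVAT at 22 °C, 0 to 5 depot interactions, and 3 differences among tissues at 10 °C for the single library left out there. The difference in the log2 ratio of Adrb3 to Adrb1 ran from 0.94 to 1.26 at 10 °C and from -1.81 to -1.002 at 34 °C. Where a group was left with 2 libraries, its spread was pooled with the other group. Shares of all genes called with a library left out are not given here.

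Replicate numbers in the labels did not pair the libraries: same-numbered libraries had correlations of -0.69 to 0.43 over 34 pairs, and 10 of the 34 correlated best with their own number. With the replicate block the calls in pgVAT went from 0 to 2 (Prkar2b and Adrb3), when 810 of all 14856 genes were called. Depot interactions went from 0 to 1 (Gnas), with no share over all genes given here. Adrb3 in brain at 10 °C was called lower (log2FC -1.05), and the block moved no other count by over 1.5 times.

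Depth limits genes under 1 CPM, such as Adra2a in iBAT and liver, which could not be tested. Per-library pools of 2 mice and 3 libraries per group limit what a missed threshold can show, and the 34 °C and 10 °C experiments differ in supplier as well as temperature, and for iBAT, liver, ileum and brain also in kit and site, so their levels cannot be compared directly.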

Other observations

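For each of the 9 genes, the 3 genes whose log2 CPM followed it most closely over the 48 libraries of the 8-tissue table were listed among 15887 genes, as a description. The 48 points share 8 tissues, so these Pearson correlations mostly reflect differences between tissues. Adra1a was followed most closely by Prkaca (r = 0.966), the gene of the catalytic alpha subunit of protein kinase A, then by 4930402H24Rik (0.954) and Ddo (0.945). Adrb3 was followed by Fgfrl1 (0.969), Chpt1 (0.966) and Car5b (0.963), Prkar2b by Rgcc (0.971), Fundc2 (0.949) and Ucp3 (0.948), and Pde3b by Arhgap29 (0.979), Bcat2 (0.974) and Pfkfb1 (0.967). Adra2a, the only gene of the 9 that was highest in hypothalamus, was followed by Igsf9b (0.974), Gprin1 (0.961) and 1500009L16Rik (0.957). Adrb1 and Adcy3 shared Impdh1 in their lists (0.915 and 0.918), beside Atp1b3 (0.912) and Prex2 (0.880) for Adrb1 and Tecpr1 (0.935) and Nap1l4 (0.930) for Adcy3. Pde4d was followed by Dpf3 (0.913), Vipas39 (0.906) and Pptc7 (0.890). Gnas, whose closest gene had the lowest r among the closest genes of the 9, was followed by Fam161b (0.897), Fgd1 (0.883) and Sec14l5 (0.882).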
